A study of Mus musculus with 4 samples.

Results

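The B cell receptor is a membrane immunoglobulin held in a complex with CD79A and CD79B, whose cytoplasmic tails carry the tyrosine motifs through which the receptor signals. Src family kinases (LYN, BLK and FYN) phosphorylate these motifs, SYK docks on them, and SYK and BTK then act through the adaptor BLNK on the phospholipase PLCG2, which releases the second messengers for calcium and protein kinase C. BANK1 is a scaffold that binds LYN. In splenic B cells this relay decides survival and activation, and several of its members are drug targets in human B cell lymphoma.

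The signalling genes described here are Cd79a, Cd79b, Syk, Lyn, Blk, Btk, Blnk, Plcg2, Bank1 and Fyn, and every non-control probe that carries 1 of these 10 names in the array files was used. This gave 10 of 27745 gene names and 13 of 41174 probes, on 31 spots of each array. The samples compared were 2 B-cell lymphoma lines, independently established from mice transgenic for dopamine receptor 3, and 2 samples of B220+ splenocytes from C57BL/6N mice. All samples were labelled as female and C57BL/6N, and each was Cy3-labelled total RNA on its own single-colour array. The labels used here give no age, no promoter or cell type for the transgene, no passage number and no statement on pooling of animals. Each line is 1 culture on 1 array. Nothing says that the splenocyte samples came from separate animals, so the p-values weigh differences against a spread that may be technical.

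All 4 arrays lay on 1 slide and came from 1 scan. Between 24972 and 27318 probes per array were well above background, the processed signal had its 75th percentile at 1122 and 1315 in lines 1 and 2 and at 1078 and 514 in splenocyte samples 1 and 2, and no spot was saturated. Signals below are given as multiples of that 75th percentile of their own array, and differences as lines minus splenocytes on the log2 scale with the standard error of the limma fit over all 27402 tested probes. A probe was called at a Benjamini-Hochberg adjusted p under 0.05. The 8 B cell markers examined were well above background on all arrays (6 called lower in the lines, 2 not called), with a summed signal of 436 to 499 in the lines and 643 to 952 in the splenocytes. The 2 uncalled markers gave most of that sum. Ighm was at 272 and 234 in the lines, against 272 and 539 in the splenocytes. Ms4a1 was at 163 and 145 in the lines, against 141 and 169. The median difference of the 8 markers was −1.99. Among all genes 32.7% were called lower. In such bulk RNA, fewer cells of a type and less RNA per cell cannot be told apart. Malignancy, growth in culture and the animals of origin all separate the groups together, and their shares in a difference cannot be told apart.

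Genes of proximal receptor signalling were lower in the lymphoma lines or did not pass the test, and none was called higher. Of the 13 member probes, all of which were tested, 10 were called lower and 3 were not called. The 10, like the 11 named below, include the dimmest Bank1 probe, which passed the filter only through the splenocytes. With testing limited to probes well above background on all 4 arrays, 9 of 12 member probes were called lower. Of all such probes 67.5% were called in either direction. Among all tested probes 32.5% were called lower and 32.3% higher, 64.8% in all. By gene, each at its tested probe with the highest mean, 7 of 10 members were called lower, against 32.7% of all genes called lower and 63.4% called in either direction. The median difference of the member probes was −1.52, and that of all tested probes was −0.01. At the probes with only a bound in the lines, here and in the pathway and T cell lists below, that bound also lies below the median, which is therefore the same with it. Both lines lay below both splenocyte samples at 11 of 13 member probes, which was the case for 42.9% of all tested probes, while both lines lay above at 42.7% and the groups did not overlap at 85.6%. The 3 Bank1 probes and the 2 Lyn probes each share 1 gene and are not independent.

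**Figure D1:**
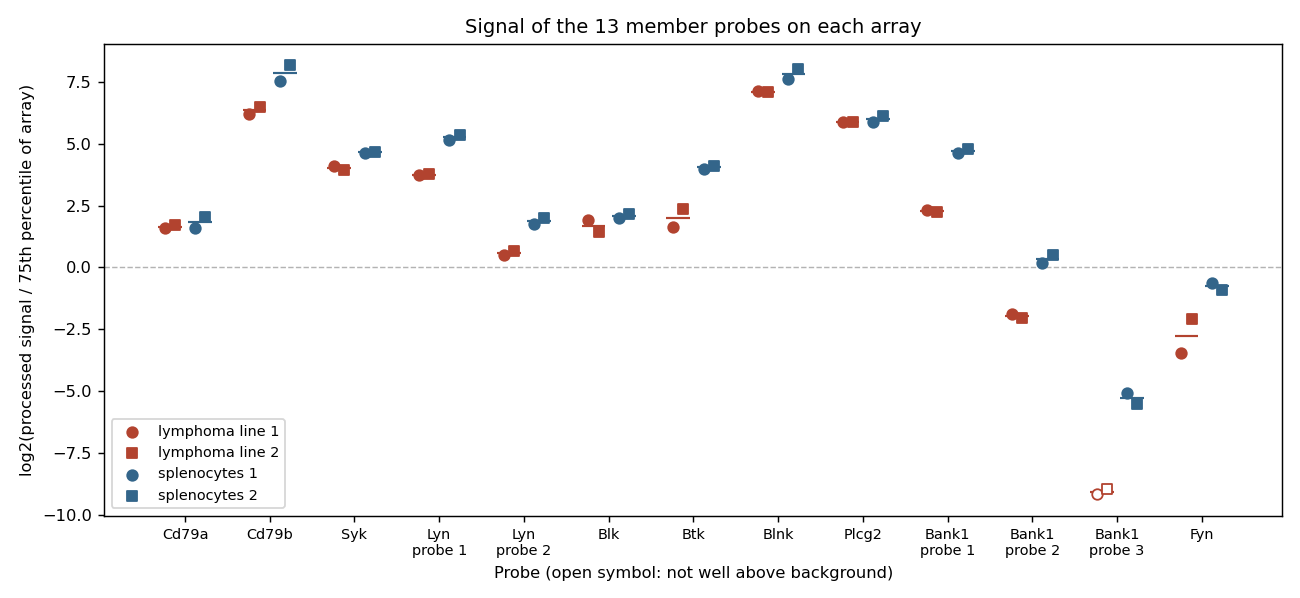
Each point is 1 array, plotted as the log2 of the processed signal over the 75th percentile of that array (vertical axis) for the 13 member probes (horizontal axis), with lymphoma lines in red, splenocytes in blue and a bar at each group mean. The groups lie apart at every probe except those of Cd79a and Plcg2, and the open symbols mark the third Bank1 probe in the lines, which was not well above background there.

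The members differ in the sequence around their gene starts, and the windows of the members with the largest mean decreases (Bank1, Btk and Fyn) are shown beside those of a pair that was not called (Cd79a and Plcg2). The windows come from RefSeq on GRCm38.p6, run from 250 bases before to 50 bases after an annotated gene start, and were found for 7 of the 10 members (Cd79b, Lyn and Blk had no entry). Capitals mark matches, on either strand, to 4 letter patterns known from B cell promoters: ATGCAAAT, the octamer of the OCT factors; CCCNNGGG, a core of EBF1 sites; AGGAAG, a core of Ets and PU.1 sites; and CAGGTG, an E-box of E2A. The windows are chr7:24897247-24897546 (+ strand) for Cd79a, chr8:117498025-117498324 (+ strand) for Plcg2, chr3:136326017-136326316 (− strand) for Bank1, chrX:134583091-134583390 (− strand) for Btk and chr10:39369549-39369848 (+ strand) for Fyn.
Cd79a: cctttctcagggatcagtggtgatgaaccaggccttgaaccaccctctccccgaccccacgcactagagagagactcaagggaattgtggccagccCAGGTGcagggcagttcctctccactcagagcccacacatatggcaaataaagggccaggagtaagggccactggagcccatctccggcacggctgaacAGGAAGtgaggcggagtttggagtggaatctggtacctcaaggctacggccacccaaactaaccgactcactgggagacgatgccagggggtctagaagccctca
Plcg2: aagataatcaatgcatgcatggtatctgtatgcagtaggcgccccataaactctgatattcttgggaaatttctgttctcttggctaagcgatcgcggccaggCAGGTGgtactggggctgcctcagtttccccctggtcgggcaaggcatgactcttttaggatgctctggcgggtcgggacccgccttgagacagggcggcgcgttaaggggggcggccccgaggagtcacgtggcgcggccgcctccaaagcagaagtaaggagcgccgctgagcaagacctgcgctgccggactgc
Bank1: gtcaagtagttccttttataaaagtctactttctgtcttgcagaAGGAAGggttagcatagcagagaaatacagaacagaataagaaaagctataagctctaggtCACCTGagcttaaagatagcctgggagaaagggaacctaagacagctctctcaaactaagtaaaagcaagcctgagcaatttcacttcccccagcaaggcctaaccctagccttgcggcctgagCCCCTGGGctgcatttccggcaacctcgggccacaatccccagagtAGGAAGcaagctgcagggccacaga
Btk: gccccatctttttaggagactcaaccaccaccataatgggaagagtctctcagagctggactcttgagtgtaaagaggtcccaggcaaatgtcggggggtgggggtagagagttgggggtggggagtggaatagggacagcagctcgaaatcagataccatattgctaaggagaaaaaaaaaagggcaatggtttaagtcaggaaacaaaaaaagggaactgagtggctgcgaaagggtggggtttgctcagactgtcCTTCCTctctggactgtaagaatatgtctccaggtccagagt
Fyn: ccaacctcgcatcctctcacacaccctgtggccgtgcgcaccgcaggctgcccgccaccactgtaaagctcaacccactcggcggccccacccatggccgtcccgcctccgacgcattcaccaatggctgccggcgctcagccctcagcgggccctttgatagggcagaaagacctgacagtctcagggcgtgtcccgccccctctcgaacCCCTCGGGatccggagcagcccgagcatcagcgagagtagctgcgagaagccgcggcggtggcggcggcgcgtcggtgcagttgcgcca

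Of the 8 windows of the 7 members (Syk has 2), 6 held CAGGTG or its reverse complement, against 20.2% of all 32851 windows of the same length. AGGAAG was found in 4 of 8 windows, against 35.4% of all windows, and CCCNNGGG in 2 of 8, against 13.7%. The octamer occurred in the Blnk window alone among the 8, at −130 to −123 from the gene start, and in 1.74% of all windows. In Cd79a the AGGAAG match lay at −55 to −50 and the CAGGTG match at −154 to −149 from the gene start. Plcg2 held CAGGTG only, Btk AGGAAG only and Fyn CCCNNGGG only, while Bank1 held 3 of the 4 patterns. The matches describe letters in these windows, and no binding was measured.

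Of the receptor's own signalling chains, Cd79b was called lower in the lines and Cd79a was not. Cd79b, one chain of the heterodimer, gave a signal of 73.6 and 90.2 in lines 1 and 2, against 189 and 288 in splenocyte samples 1 and 2, at its probe on chromosome 11 (106127556 to 106127615, mm8, − strand). Both lines were below both splenocyte samples, and Cd79b was 2.86-fold lower in the lines (−1.52 ± 0.27, SE, n = 2 against 2; limma adjusted p = 0.00818). Cd79a, the partner chain, gave 2.99 and 3.30 in the lines, against 3.02 and 4.12 in the splenocytes (chromosome 7, 24608094 to 24608351, mm8, + strand). The alignment of this probe spans 258 bases and is split. The Cd79a groups overlapped, since line 2 lay above splenocyte sample 1, and the difference of −0.17 ± 0.21 did not pass (limma adjusted p = 0.515). Its 95% interval, −0.73 to 0.39, allows a level in the lines from 0.603 to 1.31 times that in splenocytes.

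The ratio of the Cd79b to the Cd79a probe within an array does not depend on how arrays are scaled. Its log2 was 4.62 and 4.77 in the lines and 5.96 and 6.13 in the splenocytes, so that the pair differed by −1.35 between the groups, with no overlap. An exact two-sided permutation test of 2 against 2 arrays gave p = 0.333, the smallest it can give, so it could not have passed. This ratio was chosen after the values were seen, and the absolute ratio has no meaning because the probes differ.

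Of the Src family members, Lyn and Fyn were lower in the lines and Blk was not called. Lyn, which starts receptor signalling and also feeds the inhibitory arm, has a pair of probes on chromosome 4 (mm8, + strand). The brighter (3717973 to 3718032) gave 13.2 and 13.6 in the lines, against 35.9 and 41.4 in the splenocytes. The other (3716905 to 3716964) gave 1.43 and 1.59 in the lines, against 3.36 and 3.997 in the splenocytes. Both probes put Lyn lower, by 2.87-fold (−1.52 ± 0.16; limma adjusted p = 0.00181) and by 2.43-fold (−1.28 ± 0.17; limma adjusted p = 0.00368).

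Blk, a Src family kinase named for B lymphoid cells, gave 3.78 and 2.69 in the lines, against 4.01 and 4.41 in the splenocytes. Its probe aligned over 1138 bases of chromosome 14 (62332606 to 62333743, mm8, − strand), so the alignment is split. Both lines were below both splenocyte samples, but the difference of −0.40 ± 0.22 did not pass (limma adjusted p = 0.176; 95% interval −0.99 to 0.19), and it was −0.64 without line 1 (limma adjusted p = 0.0461) and −0.15 without line 2 (limma adjusted p = 0.467).

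Fyn, a Src family kinase that also serves the T cell receptor, gave 0.0903 and 0.232 in the lines, against 0.651 and 0.537 in the splenocytes (chromosome 10, 39254149 to 39254208, mm8, + strand). Both lines were lower, line 1 more so, and Fyn was 4.09-fold lower on average (−2.03 ± 0.49; limma adjusted p = 0.0210). The call was lost without splenocyte sample 1 (−1.89; limma adjusted p = 0.0733) and without splenocyte sample 2 (−2.17; limma adjusted p = 0.0550), and the difference was −2.71 without line 2 and −1.35 without line 1.

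T cell genes, set beside Fyn, moved both ways. Among all genes 32.7% were called lower and 30.7% higher, for comparison with the T, NK and myeloid counts that follow. Of 12 T cell markers 7 were called lower, 2 higher and 3 not, with a median of −0.79. Their summed signal was 11.7 to 13.5 in the lines and 10.9 to 11.6 in the splenocytes, but different genes made it up. Cd3g (5.09 and 6.15) and Cd5 (5.37 and 5.73) gave most of it in the lines, whereas Cd2, at 0.675 and 0.999 in the lines, gave most of it in the splenocytes (8.02 and 8.04). Thy1, Cd247 and Cd8a were not well above background in either line, whereas Cd3g (4.36) and Cd5 (2.56) were higher in the lines. Of 7 NK cell markers 5 were tested, 4 of them lower and 1 higher, with a summed signal of 0.444 to 0.576 in the lines and 0.840 to 0.876 in the splenocytes. Klrk1 and Gzma were not well above background in either line. Ncr1 and Eomes were not tested, as Ncr1 was well above background on no array and Eomes only in splenocyte sample 1. Of 12 macrophage, monocyte and neutrophil markers 9 were lower, 1 higher and 2 not called. Lyz1, Lyz2, Csf3r and S100a8 of that list were not well above background in either line. Its summed signal was 38.9 to 43.1 in the lines, where Mpeg1 alone gave 38.6 and 33.8, and 24.2 to 30.5 in the splenocytes. Lyn, Syk, Btk, Plcg2 and Fyn are also used by T, NK or myeloid cells, and the part of such cells in their differences was not tested.

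Of the kinases that act after the Src family, Btk was far lower in the lines and Syk slightly lower. Btk, the Tec family kinase that activates PLCG2, gave 3.07 and 5.21 in the lines, against 15.9 and 17.3 in the splenocytes (chromosome X, 129888872 to 129888931, mm8, − strand). The groups were well apart, and Btk was 4.14-fold lower (−2.05 ± 0.29; limma adjusted p = 0.00452). Syk, which binds the phosphorylated CD79 tails, gave 17.0 and 15.3 in the lines, against 25.0 and 25.5 in the splenocytes (chromosome 13, 52660724 to 52660783, mm8, + strand). Syk was 1.57-fold lower (−0.65 ± 0.15; limma adjusted p = 0.0183). That call was lost without splenocyte sample 1 (−0.66; limma adjusted p = 0.0906) and without splenocyte sample 2 (−0.63; limma adjusted p = 0.103), when dim probes were kept (limma adjusted p = 0.0584) and with arrays centred on the median of all probes (−0.22; limma adjusted p = 0.372).

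**Figure D2:**
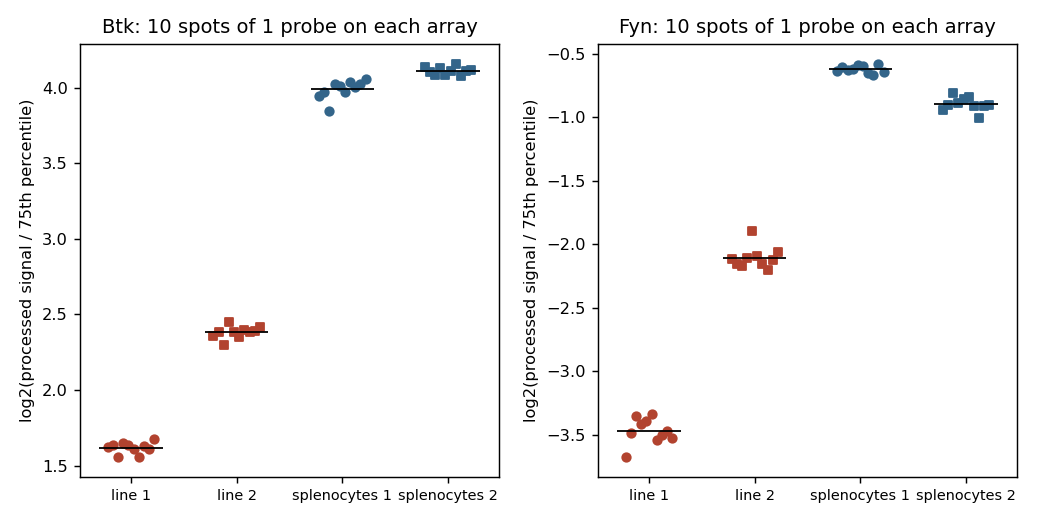
Each point is 1 of the 10 spots of the Btk probe (left) and the Fyn probe (right), as the log2 of the processed signal over the 75th percentile of the array (vertical axis) on each of the 4 arrays (horizontal axis), with a line at the mean of each array. For both genes line 1 lies below line 2, and both lines below both splenocyte samples, with no overlap between the spots of the lines.

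The Btk and Fyn probes were each printed 10 times per array, which shows how far line 1 and line 2 differed beyond the spread between spots. The 10 Btk spots ran from 2.94 to 3.20 in line 1 and from 4.93 to 5.46 in line 2. In the splenocytes they ran from 14.4 to 16.6 in sample 1 and from 16.9 to 17.8 in sample 2. Line 1 thus had 1.70-fold less Btk signal than line 2, a gap of 0.76 on the log2 scale, against an SD between spots of 0.037 and 0.040 in the lines. The 10 Fyn spots ran from 0.0782 to 0.0990 in line 1 and from 0.217 to 0.269 in line 2, against 0.629 to 0.671 in splenocyte sample 1 and 0.498 to 0.570 in sample 2. The Fyn gap between the lines was 2.57-fold, or 1.36 on the log2 scale, larger than the gap of 97.1% of all tested probes. Spots of 1 array share 1 RNA and are not replicates of a line, so the difference between lines has no test.

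The other members agreed more closely between the lines. Over all tested probes the median gap between the lines was 0.23 on the log2 scale. Blk differed by 0.49, Cd79b by 0.29 and Syk by 0.15, while the gaps of Plcg2 (0.0020), Blnk (0.024) and the brighter Lyn probe (0.042) were below those of more than 90% of probes.

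Of the adaptor, the phospholipase and the scaffold, Blnk and Bank1 were called lower in the lines and Plcg2 was not called; the difference between Blnk and Plcg2 was not tested. Blnk, which links SYK and BTK to PLCG2, gave 139 and 137 in the lines, against 196 and 257 in the splenocytes (chromosome 19, 40982249 to 40982308, mm8, − strand). Both lines were lower and nearly equal, and Blnk was 1.63-fold lower (−0.71 ± 0.19; limma adjusted p = 0.0299). This call was lost without line 1 (−0.72; limma adjusted p = 0.0809), line 2 (−0.69; limma adjusted p = 0.0840) or splenocyte sample 2 (−0.51; limma adjusted p = 0.148), after quantile normalization (−0.28; limma adjusted p = 0.182), when dim probes were kept (limma adjusted p = 0.0754) and under both forms of centring on a median (−0.28 and −0.59; limma adjusted p = 0.316 and 0.0545). Plcg2, the phospholipase at the end of the proximal relay, gave 58.8 and 58.7 in the lines, against 58.5 and 70.7 in the splenocytes (chromosome 8, 120521057 to 120521114, mm8, + strand). Its groups overlapped, and the difference of −0.13 ± 0.17 did not pass (limma adjusted p = 0.525), with a 95% interval of −0.58 to 0.32, or 0.670 to 1.25 times the splenocyte level.

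Bank1, the B cell scaffold with ankyrin repeats, had the largest mean decrease of the 10 members. In line 1 alone, against the splenocyte mean, the differences of Fyn (−2.71) and Btk (−2.43) were larger than that of the brightest Bank1 probe (−2.38). This Bank1 probe (chromosome 3, 135991290 to 135991349, mm8, − strand) gave 5.02 and 4.73 in the lines, against 24.4 and 28.0 in the splenocytes. The second gave 0.274 and 0.240 in the lines, against 1.14 and 1.40 in the splenocytes, and its alignment over 109961 bases (136041294 to 136151254) is split as well. The differences at these probes were close, 5.37-fold (−2.43 ± 0.16; limma adjusted p = 0.000637) and 4.91-fold (−2.30 ± 0.18; limma adjusted p = 0.000995) lower in the lines. The third probe, designed on a cDNA clone and lying inside the span of the second (136148512 to 136148571), was dim. It gave 0.00173 and 0.00199 in the lines, where it was not well above background, against 0.0295 and 0.0219 in the splenocytes. A bound in the lines put Bank1 3.60-fold lower there. The probe was tested only because it was bright in the splenocytes, and its call rests on those line signals, so it adds nothing to the other Bank1 probes. That bound sets the splenocyte mean against the lowest signal well above background on each line array. It is no strict limit, since some probes above that signal were not well above background, such as Itgax in line 1 (0.00731 against 0.00608). The bound also depends on the background correction: with normexp the fitted difference was −0.97, smaller than the bound.

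**Figure D3:**
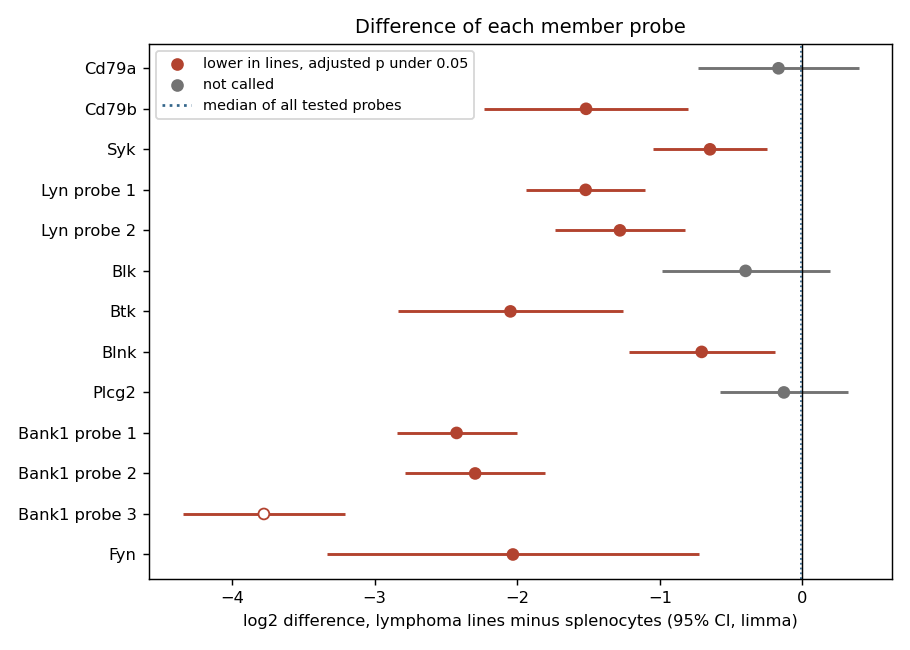
Points show the log2 difference, lymphoma lines minus splenocytes (horizontal axis), of each of the 13 member probes (vertical axis) with the 95% confidence interval of the limma fit as a line, red where called lower and grey where not called. The 3 grey intervals, of Cd79a, Blk and Plcg2, include 0, and the open symbol of the third Bank1 probe rests on line signals not well above background.

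The uncalled members depend on the scaling for their sign. When arrays were centred on the median of all probes, the median difference of all tested probes moved to 0.42, and Cd79a (0.26), Blk (0.03) and Plcg2 (0.30) became positive without being called. Relative to the median of all tested probes, which such a shift leaves unchanged, their differences were −0.16, −0.39 and −0.12. Without splenocyte sample 2, Cd79a was at 0.05 and Plcg2 at 0.01. The differences of Cd79b, Lyn, Btk and Bank1 were negative and called under every alternative in which they were tested.

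Whether the decreases extended to relatives of the members was read from 15 genes of the Src, Syk and Tec families and of the adaptors and phospholipases, each at its tested probe with the highest mean. Of 14 tested, 8 were called lower, 2 higher and 4 not, with a median difference of −1.12, against 32.7% of all genes called lower and 30.7% higher and a median of −0.05. Txk, a Tec family kinase of T cells, had the largest decrease, with 0.0104 and 0.0219 in the lines, against 0.864 and 0.708 in the splenocytes (−5.70 ± 0.40; limma adjusted p = 0.000759). Yes1, a broadly expressed Src family kinase, had the largest increase, with 0.263 and 0.229 in the lines, against 0.0177 and 0.0199 in the splenocytes (3.71 ± 0.16; limma adjusted p = 0.000297). The myeloid Src kinase Fgr (−2.71), the T cell kinases Lck (−1.99) and Zap70 (−3.53), and Plcg1 (−1.27), the paralogue of Plcg2, were lower too. Src was called higher at its brighter probe (1.62) and lower at the other. Tec (−0.30), a relative of Btk, was not called.

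**Figure D4:**
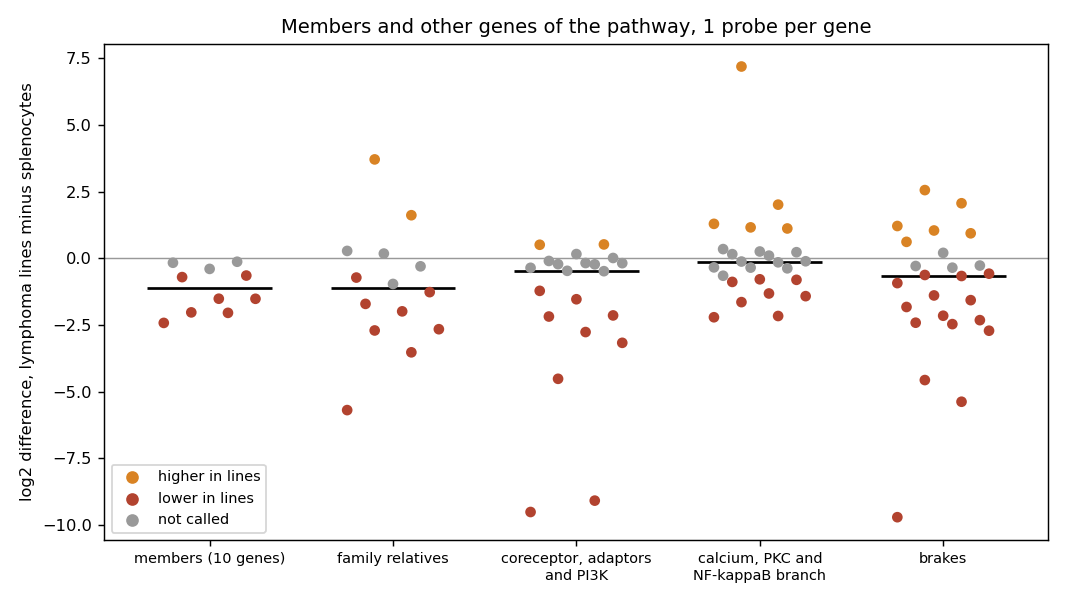
Each point is 1 gene at its tested probe with the highest mean, plotted as the log2 difference, lymphoma lines minus splenocytes (vertical axis), for the 10 members and the 4 lists of other pathway genes (horizontal axis), with a line at each median. No member is called higher, while each of the other 4 lists holds genes called in both directions, and genes not well above background in the lines (such as Vav3 and Pag1) are drawn at their fitted value, which is no bound.

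Genes next to the receptor were measured through its coreceptor, adaptors and PI3 kinases. Of 21 tested of 23, 9 were called lower, 2 higher and 10 not, with a median of −0.47, against the same 32.7% and 30.7% of all genes. Cr2, a complement receptor of B cells, had the largest measured decrease, with 0.0368 and 0.0473 in the lines, against 32.1 and 29.4 in the splenocytes (−9.52 ± 0.19; limma adjusted p = 9.44e-05). Pik3cd, the leukocyte catalytic PI3 kinase, was lower (−2.19). Vav3, an exchange factor, was not well above background in either line. By the same kind of bound as for Bank1, Vav3 was 123-fold lower with the background correction used here. The largest increase, of the adaptor Crkl, was 0.52 ± 0.15 (limma adjusted p = 0.0333). Grb2 (−0.18), Vav1 (0.16) and Cd81 (−0.23) were not called.

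Downstream of PLCG2, the genes of calcium, protein kinase C and NF-kappaB signalling were mixed. Of 25 tested, 8 were called lower, 5 higher and 12 not, with a median of −0.15, a share of lower calls close to the 32.7% of all genes. Malt1, a protease of the NF-kappaB branch, was lowest, with 2.15 and 2.54 in the lines, against 11.6 and 10.2 in the splenocytes (−2.21 ± 0.17; limma adjusted p = 0.000955). Itpr3 (−2.17), a calcium channel opened by the product of PLCG2, was lower as well. Camk4, a calcium-dependent kinase, had the largest increase, with 2.21 and 3.62 in the lines, against 0.0169 and 0.0221 in the splenocytes (7.20 ± 0.31; limma adjusted p = 0.000273). Prkcb (−0.34), a protein kinase C of B cells, was not called. Called probes of Ppp3cb, a calcineurin subunit, went opposite ways.

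Of 25 tested genes listed as restraining the receptor, 15 were called lower, 6 higher and 4 not, with a median of −0.67, against 32.7% of all genes called lower and 30.7% higher. The 15 include Ptprc (−1.83) and Ptprj (−2.42), the phosphatases CD45 and CD148, which are also known to activate Src family kinases. Pag1, the membrane adaptor that holds CSK near Src kinases, was not well above background in either line. By the same kind of bound as for Bank1, Pag1 was 545.7-fold lower with the background correction used here, and its call rests on those line signals. Csk itself, which inhibits LYN, BLK and FYN, was lower (−1.40), as were Cd22 (−2.32), an inhibitory receptor, and Inpp5d (−0.67), the lipid phosphatase SHIP. Cd5 had the largest increase, with 5.37 and 5.73 in the lines, against 1.12 and 0.794 in the splenocytes (2.56 ± 0.22; limma adjusted p = 0.00116). Ptpn6 (−0.29), the phosphatase SHP-1, was not called. Inppl1 (2.06) and Ptpn11 (1.04), paralogues of Inpp5d and Ptpn6, were called higher. Over the 85 tested genes of the 4 lists 40 were called lower and 15 higher.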

How the data were processed

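The 4 arrays were assigned to 2 groups by their titles. Per the file headers, images were read with Agilent Feature Extraction 9.5.1.1 (9.5 per the submitters' processing notes), and the array design is annotated on mm8. The deposited processed signal is an intensity, corrected for background and spatial trends by the authors' software; dim spots hold a surrogate value, and arrays were not scaled to each other. A deposited series matrix repeats this intensity times 1 factor per array (0.961 and 0.820 for the lines, 1 and 2.10 for the splenocytes), read from the values. These factors bring the 75th percentile of each array to that of splenocyte sample 1.

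Here log2 processed signals were averaged over the spots of a probe, after spots flagged as outliers on any array were left out (153 probes lost, no member spot flagged), and the log2 of the 75th percentile over non-control spots of the array was subtracted. Testing required a signal well above background on 2 or more of the 4 arrays. The groups were set against each other with limma 3.58.1 (lmFit, eBayes, two-sided) in R 4.3.3, with 2.42 prior and 2 residual degrees of freedom. The code was also run on simulated data. Far fewer probes changed there than were called here, so that run does not bear on the calls. The same numbers of lines and splenocyte samples did not deviate together (r = 0.011 across probes), so replicate numbers only name samples. Flags were used as deposited. The exon or UTR of a probe was not determined, since no mm8 annotation was used. Pathway and marker genes were matched by array name, RefSeq accession or older symbol (RefSeq genes of GRCm38.p6). All probes of the 10 members are named; from each other list, the called genes with the largest increase and decrease are named, and those whose values stand beside a member's. The other list genes with values (such as Fgr, Csk, Pik3cd, Itpr3 and Grb2) were chosen after their values were seen. The lists of pathway genes and of cell types (B, T, NK, myeloid, dendritic, erythroid, platelet) share genes such as Cd22, Cd5, Ptprc and Lat; some list genes are counted but not reported here by name. Members and lists were chosen with earlier results of these data known. The number of arrays limits the precision.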

Additional observations from a re-analysis of the deposited data

How the results depend on the processing

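The values of the member probes and the counts of calls were recomputed under 17 alternatives (fewer for the dimmer Lyn and Bank1 probes, which some alternatives leave out), 1 of them (centring on the median of tested probes) chosen after seeing the data. The alternative that used the deposited matrix holds the same intensities times 1 factor per array. Its agreement with the main values was therefore fixed in advance. No member probe was called higher under any of them, and the number called lower ran from 7 to 10. Without 1 array at a time, 7 to 10 member probes, 13158 to 17019 probes in all, and 32 to 41 pathway genes lower and 10 to 14 higher were called. With 1 probe a gene and with the mean over probes, 11579 and 11580 genes were called in place of 17753 probes, since fewer features were tested. Cd79a, Blk and Plcg2 changed sign to 0.26, 0.030 and 0.30 when centred on the median of all probes. Without 1 array at a time Cd79a ran from −0.39 to 0.055 and Plcg2 from −0.27 to 0.0062, the positive values without splenocyte replicate 2; none of the positive values was called, and the cause was not tested. The share of called probes that were higher was 49.9%, and it ran from 43.9% after normexp to 64.6% after centring on the median of all probes. With the replicate number as a block, 10 member probes were called lower, 16748 probes in all, and 11 pathway genes higher and 40 lower; no member call changed. Values of single list genes, marker sums, ratios within an array and promoter counts were not recomputed. The bounds of Vav3, Pag1 and Itgax are among these values, and they may depend on the background correction as that of Bank1 does. A slide or scan block could not be fitted, as all arrays share 1 slide and 1 scan.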

Other observations

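The remaining cell type lists are read against 30.7% of all genes called higher and 32.7% lower. Dendritic cell genes moved both ways: of 6 tested, 3 were higher, 1 was lower and 2 were not called by limma. Zbtb46 had the largest increase (2.88), and Flt3, a cytokine receptor of progenitors, was higher in the lines (2.82 ± 0.32, SE; limma adjusted p = 0.00226). Itgax, the integrin CD11c, was not well above background in either line. By the same kind of bound as for Bank1, Itgax was 122-fold lower with the background correction used here. Of 3 tested erythroid genes all 3 were lower, and the 1 platelet gene tested, Itga2b, was not called (0.76).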
